A study of Rattus norvegicus with 23 samples.

Results

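The miR-15, miR-16, miR-195 and miR-497 family was measured in 23 small RNA libraries of rat muscle-derived stem cells (MDSC). Members were every entry of the count tables named for rat miR-15a, miR-15b, miR-16, miR-195 or miR-497, with either arm of the hairpin, which gave 10 of 792 entries. The libraries came from 5 kinds of stem cell in 3 deposited count tables, here called the male, serum and lipid tables, and the study asked how the miRs of these cells differ between stem cells and how they respond to diabetic, dyslipidemic serum and to lipids. In female rats, ZF4-SC came from young Zucker Fatty rats, which carry the Lepr fa mutation, and ZL4-SC from Zucker Lean rats of the same age. Both are from the pelvic floor (levator ani), were selected as Sca1- and CD34+ cells without blood or endothelial surface antigens, and are 1 line per strain, so strain and line cannot be told apart. In male rats, ED-MDSC (early diabetes) came from young and LD-MDSC (late diabetes) from aged Zucker Fatty rats, and the remaining kind, ND-MDSC, is labelled only as non-diabetic. The male cells were enriched by pre-plating for Sca1, and the labels name the quadriceps where the study's text names the gastrocnemius. All cells were grown in culture medium, and the agents were added for 4 days. They were 5% serum of lean rats (LZ serum) or of obese rats (OZ serum), taken from females for the female cells and from males for the ED-MDSC, albumin-carried palmitate, cyclodextrin-carried cholesterol, and the carriers albumin and cyclodextrin alone.

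Members of this family share the bases near their 5′ end that pair with target mRNAs, the seed, and so can act on overlapping targets. They are known as restrainers of the cell cycle, through cyclin D, cyclin E and cell-cycle phosphatases, and as repressors of the survival protein BCL2. In mouse skeletal muscle, miR-195 and miR-497 are linked to the quiescence of satellite cells, the resident stem cells. miR-16 is also one of the abundant miRs of red blood cells and serum.

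The mature miRs that the results turn on are shown because the 5p arms differ in their 3′ part while their seeds do not, which bears on how their reads can be told apart, and the 3p arms because 1 of them moved with its 5p arm. The sequences are those of RefSeq for the rat (GRCr8), where 8 of the 10 members matched, and capitals mark bases 2 to 8, the seed.
rno-miR-195-5p: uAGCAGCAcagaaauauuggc
rno-miR-16-5p: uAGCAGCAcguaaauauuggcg
rno-miR-15b-5p: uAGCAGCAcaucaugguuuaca
rno-miR-497-5p: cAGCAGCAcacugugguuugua
rno-miR-195-3p: cCAAUAUUggcugugcugcucca
rno-miR-15b-3p: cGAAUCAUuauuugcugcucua

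The 5p arms had 1 seed in common, and 5 of the 693 rat mature miRs listed there carried it, the fifth being miR-322-5p. Over 21 aligned bases, miR-16-5p and miR-195-5p were the closest pair, with 19 equal and the substitutions G10A and U11G (miR-16 first, counted from the 5′ end). By comparison, miR-195-5p and its cluster partner miR-497-5p had 12 of 21 bases equal. The 3p arms have other seeds. The way in which reads matching more than 1 entry were assigned is not given in the sources used here, so a small exchange between miR-16-5p, with far more reads, and miR-195-5p was not tested.

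The hairpins lie in 2 clusters. Mir497 (chr10:55450171-55450239) and Mir195 (chr10:55450495-55450581) are on the plus strand, 255 bases apart, and Mir195 is 66 bases from the gene C10h17orf49. Mir15b (chr2:155555178-155555275) and Mir16 (chr2:155555327-155555421) are 51 bases apart, within the span of Smc4, a condensin subunit. The hairpins of the first cluster are printed because its members gave the largest differences, with both mature arms in capitals.
Mir195: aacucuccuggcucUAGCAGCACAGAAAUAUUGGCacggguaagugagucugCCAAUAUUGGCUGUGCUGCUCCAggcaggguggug
Mir497: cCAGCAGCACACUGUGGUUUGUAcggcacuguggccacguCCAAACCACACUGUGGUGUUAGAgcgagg

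The libraries held 6492161 to 13271580 miR reads in the serum table (ZF4-SC, ZL4-SC and ND-MDSC), 1701574 to 3840523 in the male table (ED-MDSC and LD-MDSC) and 104902 to 4783062 in the lipid table (ZF4-SC), the shallowest being that with 1 mM palmitate. Only ZF4-SC without addition (in different tables) and ZF4-SC with cyclodextrin had 2 libraries. Both pairs differed by far more than sampling noise, with chi-square per degree of freedom of 2147 and 291. No source says that libraries of 1 kind of cell came from separate animals, so p-values measure only the spread between these libraries. Of the striated muscle miRs, miR-1-3p reached 0.519 reads per 1000000 miR reads of a library (RPM) and miR-206-3p 11.2, while miR-133a-3p and miR-133b-3p are listed at 0 reads in every library. So is let-7a-5p, which most cells express, so an entry listed at 0 throughout is not read here as an absent miR. The 7 blood-cell miRs searched (miR-451-5p, miR-144-3p, miR-486, both arms of miR-142, miR-223-3p and miR-150-5p) summed to 361 to 1908 RPM in the 4 ED-MDSC libraries without rat serum, 3580 with LZ serum, 9860 with OZ serum, 1535 in LD-MDSC, 20.1 to 225 in the serum table and 327 to 45720 in the lipid table. The 2 ED-MDSC libraries with rat serum stood apart from the other ED-MDSC. Over 153 miRs the rank correlation (Spearman's rho) was 0.986 to 0.996 among the 4 libraries without rat serum, 0.981 between the 2 with it, and 0.878 to 0.911 across. LD-MDSC also stood apart, at 0.920 to 0.932 with the former and 0.927 to 0.942 with the latter.

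The family took 103845 of 100708634 reads, or 0.103%, and miR-16-5p and miR-15b-5p together held 95.3% of these. Levels below are RPM. All intervals are exact 95% intervals and cover counting error only, and where a miR had 0 reads the limit given is the level of 3 reads.

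rno-miR-16-5p was the most abundant member in 20 of 23 libraries, and all male libraries were above all female ones. In ED-MDSC without rat serum its level was 1324 with no addition, 1459 with albumin, 1426 with cyclodextrin and 1690 with cholesterol. With LZ serum it was 1781 and with OZ serum 2634. ED-MDSC thus held the 6 highest values, and the serum libraries did not overlap with the others. In LD-MDSC it was 778, between the 2 values of ND-MDSC, 938 with no addition and 745 with OZ serum. ZL4-SC had 341 with no addition, 335 with LZ serum and 289 with OZ serum. ZF4-SC of the serum table had 257, 292 and 168 in the same order. These ranges overlap, as do those of ZL4-SC and the 8 ZF4-SC libraries of the lipid table, which lay from 250 to 467 with a median of 316.

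rno-miR-15b-5p followed the same order between the sexes, with less spread among the male cells. Its level in ED-MDSC was 838 with no addition, 788 with albumin, 863 with cyclodextrin, 935 with cholesterol, 861 with LZ serum and 934 with OZ serum. In this miR, ED-MDSC with and without rat serum overlapped. LD-MDSC had 666, and ND-MDSC 434 with no addition and 426 with OZ serum. ZF4-SC of the serum table had 242 with no addition, 261 with LZ serum and 101 with OZ serum, and ZL4-SC 151, 168 and 102, so that the female cells overlapped and OZ serum gave the lowest value of each. In the lipid table the level ranged from 28.6 (3 reads, with 1 mM palmitate) to 341, with a median of 250.

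The other products of the miR-15 and miR-16 hairpins were scarce. rno-miR-15b-3p, the passenger arm, had 26.3 to 35.2 in ED-MDSC without rat serum, 45.6 and 47.8 with LZ and OZ serum, 14.1 in LD-MDSC, 17.5 and 24.0 in ND-MDSC, 4.44 to 14.96 in the female cells of the serum table and 0 to 5.92 in the lipid table. rno-miR-15a-5p had 17.6 to 26.02 in ED-MDSC without rat serum, 48.6 and 37.0 with LZ and OZ serum, 19.5 in LD-MDSC, 13.03 and 10.02 in ND-MDSC, 2.56 to 5.50 in the female cells of the serum table and 0 to 14.9 in the lipid table. In both, the ND-MDSC libraries were above all 6 female libraries of their table. rno-miR-16-3p had 72 reads in all and rno-miR-15a-3p 6, and they entered no test.

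**Figure D1:**
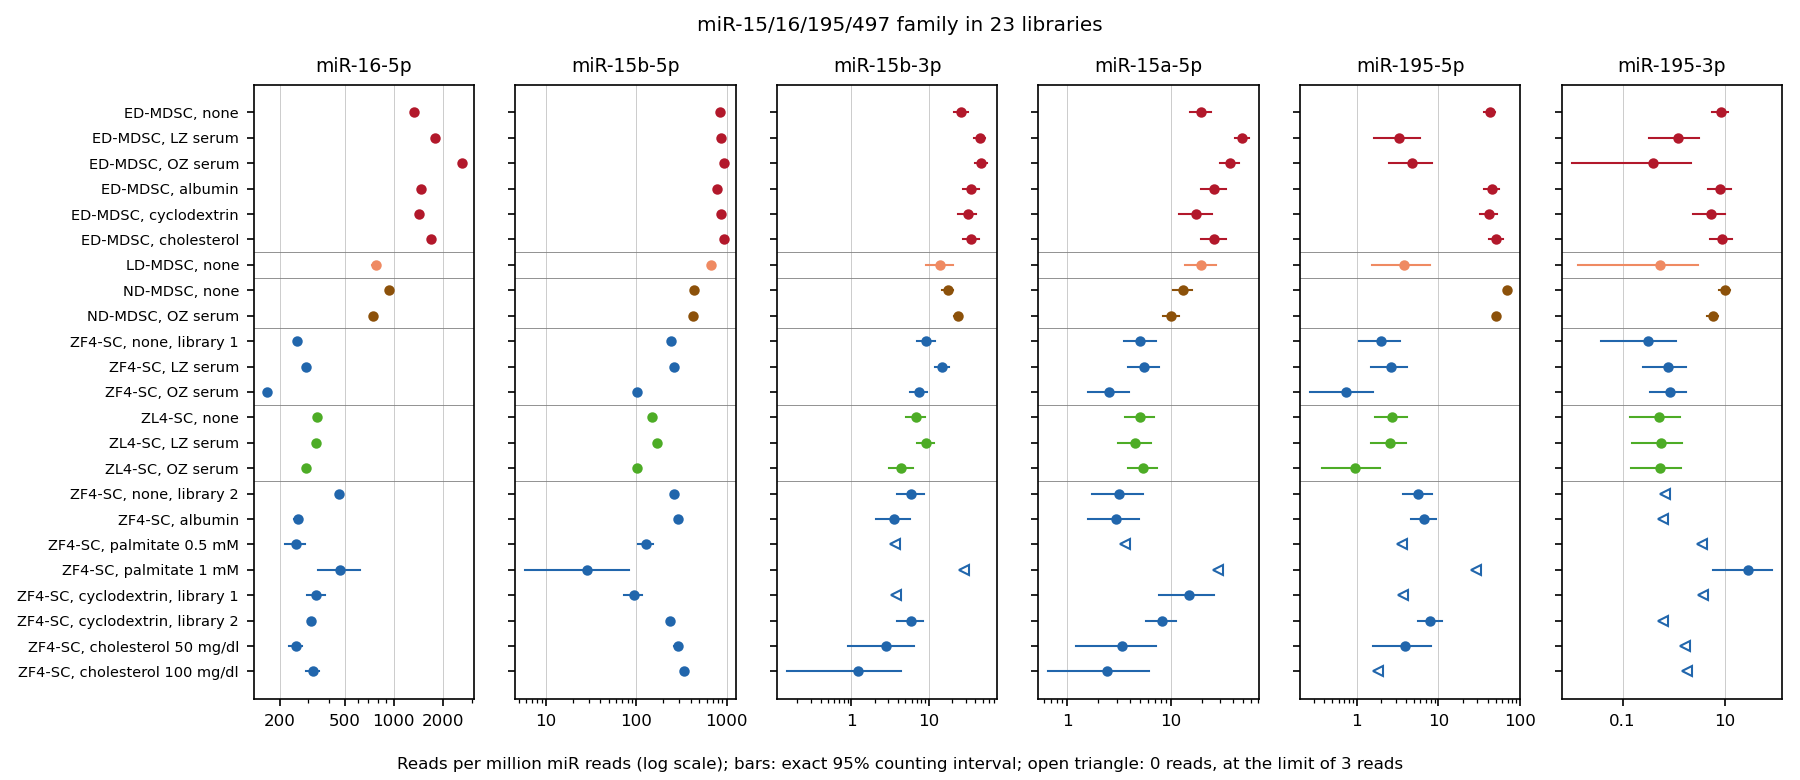
RPM, reads per 1000000 miR reads (log scale) of 6 family members in each of the 23 libraries, by stem cell and table. Points are single libraries with exact 95% counting intervals, open triangles are libraries with 0 reads at the limit of 3 reads; miR-195-5p is at 41.7 to 69.8 in ED-MDSC without rat serum and in ND-MDSC and below 8 in all other libraries that had reads of it.

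rno-miR-195-5p, the main product of the miR-195/miR-497 cluster, split the libraries into a high and a low group that did not follow sex alone. ND-MDSC had 69.8 with no addition (530 reads) and 50.0 with OZ serum (663 reads). ED-MDSC without rat serum had 42.2 with no addition, 44.9 with albumin, 41.7 with cyclodextrin and 51.3 with cholesterol, and so overlapped with ND-MDSC. All 17 other libraries were below 8. ED-MDSC had 3.30 with LZ serum (11 reads) and 4.78 with OZ serum (12 reads), and LD-MDSC 3.79 (7 reads). ZF4-SC of the serum table had 2.002 with no addition, 2.59 with LZ serum and 0.730 with OZ serum, and ZL4-SC 2.73, 2.56 and 0.942. The low male libraries were therefore closer to the female ones than to the other male ones. In the lipid table, 4 of 8 ZF4-SC libraries had 0 reads, with limits of 1.81 (100 mg/dl cholesterol) to 28.6 (1 mM palmitate), and the others 3.90 to 7.97.

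rno-miR-195-3p, the other arm of the same hairpin, and rno-miR-497-5p showed the same split at lower counts. The level of miR-195-3p in ED-MDSC was 8.33 with no addition, 8.16 with albumin, 5.29 with cyclodextrin and 8.64 with cholesterol, against 1.20 with LZ serum (4 reads) and 0.398 with OZ serum (1 read). It was 9.87 and 5.80 in ND-MDSC, 0.542 in LD-MDSC (1 read) and 0.308 to 0.852 in the female cells of the serum table. For miR-497-5p the ED-MDSC values in the same order were 5.47, 4.59, 4.70 and 3.36, then 1.20 (4 reads) and 0.796 (2 reads). ND-MDSC had 3.95 and 3.54, LD-MDSC 0 of 1845549 reads (limit 1.63), and the 14 female libraries 0 to 2 reads each. In the lipid table, miR-195-3p was at 0 reads in every library but that with 1 mM palmitate, whose 3 reads make a level of 28.6 at that depth. rno-miR-497-3p had 45 reads in all and was not tested.

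To ask how the kinds of stem cell differ, the 8 libraries of the serum table were compared with the agent as a covariate, so that the culture conditions served as replicates of a stem cell. All 7 members tested were higher in ND-MDSC than in the mean of ZF4-SC and ZL4-SC, where 38.1% of 291 miRs passed an adjusted p of 0.05 in either direction (edgeR's quasi-likelihood test with Benjamini-Hochberg adjustment, as in all tests below). miR-195-5p was 38.2-fold higher (log2 fold change 5.26 ± 0.42, SE, adjusted p = 0.000738), and without addition the ratio of single libraries was 34.8 (20.2 to 65.9) to ZF4-SC and 25.6 (16.6 to 41.7) to ZL4-SC. miR-195-3p was 12.2-fold higher (3.61 ± 0.56, adjusted p = 0.00448). miR-497-5p had a log2 difference of 5.70 ± 0.89 (adjusted p = 0.00448), with 30 and 47 reads in ND-MDSC against 4 in all 6 female libraries. miR-497-5p and miR-195-3p met the filter of a mean of 10 reads only through ND-MDSC. Their entry into the test thus depended on the group where they were high, and their calls are not independent support. The other cluster differed less. miR-16-5p was 3.02-fold higher (1.60 ± 0.21, adjusted p = 0.00253), miR-15b-5p 2.93-fold (1.55 ± 0.30, adjusted p = 0.00835), miR-15b-3p 2.81-fold (1.49 ± 0.42, adjusted p = 0.0315) and miR-15a-5p 2.42-fold (1.28 ± 0.35, adjusted p = 0.0298). The last 2 calls are the weakest. On leaving out single libraries, that of miR-15b-3p remained only without ND-MDSC or ZL4-SC with no addition, and that of miR-15a-5p only without ND-MDSC with no addition (highest adjusted p of 0.216 and 0.12, both without ND-MDSC with OZ serum). The sizes of the other calls turned on single libraries, and none was lost on leaving out a female library. With either ND-MDSC library left out, miR-497-5p fell under the filter on reads and was not tested. Without ND-MDSC with no addition the log2 differences were 5.94 for miR-195-5p, 3.04 for miR-195-3p, 2.10 for miR-15b-5p and 2.05 for miR-15b-3p, and without ND-MDSC with OZ serum 4.64, 4.24, 0.95 and 0.89. That of miR-497-5p was 7.78 without ZL4-SC with OZ serum and 5.31 to 6.26 without the other female libraries. The smooth muscle miRs moved in the same comparison, miR-143-3p by -2.28 ± 0.57 and miR-145-5p by -1.69 ± 0.28 (adjusted p = 0.0222 and 0.00527). They summed to 54000 and 124600 RPM in ND-MDSC against 281400 to 490100 in the 6 female libraries, and their part in the result was not tested. Sex, muscle, isolation and line changed together here and cannot be told apart.

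Between the female stem cells, 1 of 7 members tested passed, where 8.93% of 291 miRs did. miR-16-5p was lower in ZF4-SC than in ZL4-SC, by -0.89 ± 0.21 on the log2 scale (0.541-fold, adjusted p = 0.0456), and its level was lower in 3 of 3 culture conditions. Without addition, the levels of 257 and 341 gave a ratio of 0.753 (0.708 to 0.802). The other untreated ZF4-SC library, in the lipid table, had 462, above ZL4-SC. This call did not hold with library totals in place of the trimmed mean of M-values (TMM) factors (-0.46, adjusted p = 0.362), which shifted all miRs by 0.42 towards ZF4-SC, and was lost on leaving out any 1 of the 6 female libraries (adjusted p of 0.0712 to 0.336). The difference of miR-15b-5p was 0.01 ± 0.29 and that of miR-195-5p -0.74 ± 0.44 (adjusted p = 0.996 and 0.307).

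Rat serum was tested across stem cells with the stem cell as a block. For OZ serum against none in 4 stem cells, 0 of 7 members passed, and 0% of 300 miRs did. At an unadjusted p under 0.05 there were 18 miRs, and DESeq2 called 4, none of them a member. The lowest unadjusted p among members was that of miR-195-5p (log2 difference -1.74 ± 0.66, adjusted p = 0.685 in edgeR, unadjusted 0.0312), which was lower with OZ serum in 4 of 4 stem cells. The ratios to the untreated library were 0.113 (0.0573 to 0.203) in ED-MDSC, 0.346 (0.124 to 0.844) in ZL4-SC, 0.365 (0.114 to 1.03) in ZF4-SC and 0.716 (0.638 to 0.804) in ND-MDSC. Without ED-MDSC its log2 difference was -0.78 (adjusted p = 0.829). miR-15b-5p had ratios of 0.416 (0.382 to 0.453) in ZF4-SC and 0.676 (0.616 to 0.742) in ZL4-SC, but 0.982 (0.94 to 1.03) in ND-MDSC and 1.12 (1.06 to 1.18) in ED-MDSC, with the last turning to 0.77 under TMM sizes, and its log2 difference of -0.57 ± 0.33 did not pass (adjusted p = 0.727). miR-16-5p had ratios of 0.656, 0.847, 0.794 and 1.99 in the same order of cells.

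LZ serum against none in 3 stem cells gave 0 of 5 members tested and 0% of 295 miRs (7 at an unadjusted p under 0.05, 1 by DESeq2). In the female cells, miR-195-5p had ratios to the untreated library of 1.30 (0.593 to 2.90) in ZF4-SC and 0.939 (0.471 to 1.85) in ZL4-SC, and miR-15b-5p 1.08 (1.01 to 1.15) and 1.11 (1.03 to 1.21). For OZ against LZ serum, 0 of 5 members passed, where 0.341% of 293 miRs did (13 at an unadjusted p under 0.05, 0 by DESeq2), and miR-15b-5p differed by -0.53 ± 0.33 (adjusted p = 0.91).

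**Figure D2:**
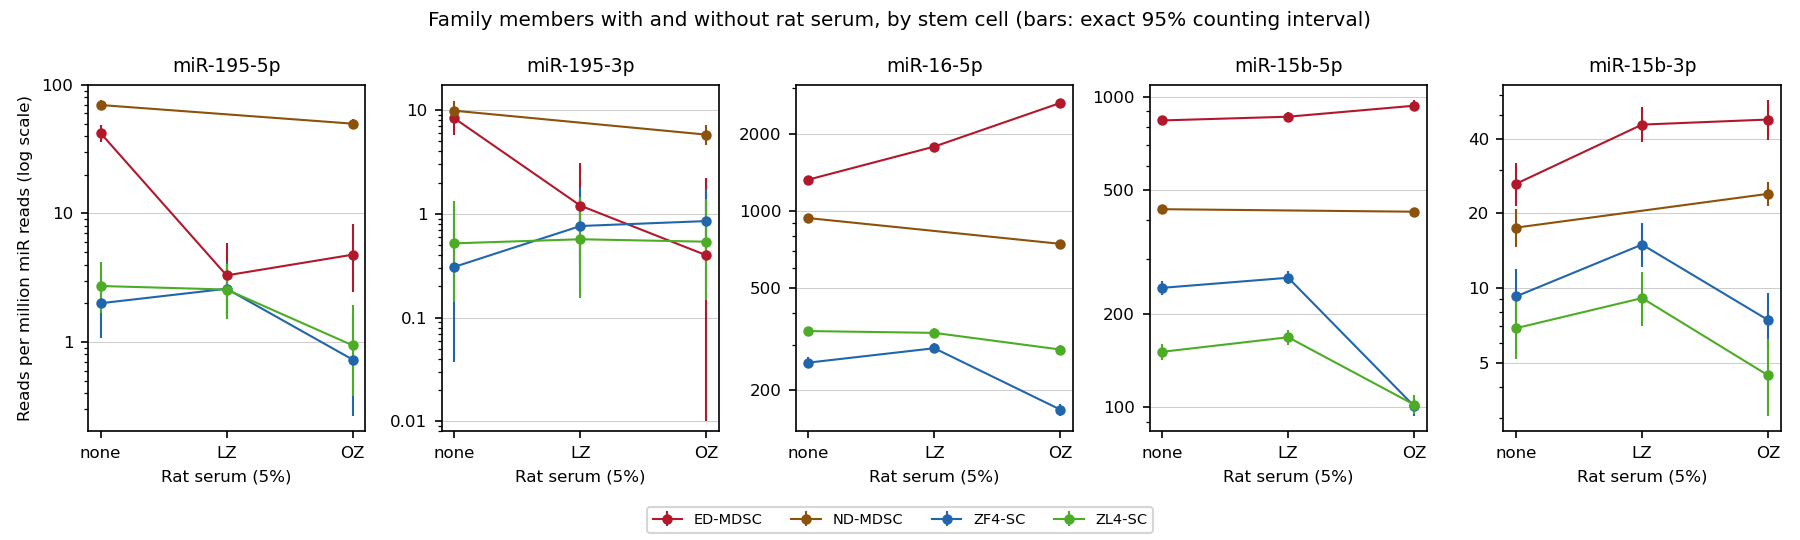
RPM, reads per 1000000 miR reads (log scale) of 5 members without rat serum and with LZ or OZ serum in ED-MDSC, ND-MDSC (no LZ serum library), ZF4-SC and ZL4-SC; points are single libraries with exact 95% counting intervals. miR-195-5p is at 42.2 in ED-MDSC without rat serum and at 3.30 and 4.78 with it, and at 69.8 and 50.0 in ND-MDSC.

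Within ED-MDSC, the 2 libraries with rat serum were set against the 4 without, a comparison chosen after the values were seen. The agents without rat serum were taken as replicates, as were the 2 sera. The p-values describe values already seen and are not independent evidence. Of 6 members tested, 2 were lower and none was higher, where 51.1% of 264 miRs passed in either direction, so that a call is common in this comparison. miR-195-5p fell by 3.95 ± 0.29 on the log2 scale (0.0649-fold, adjusted p = 2.338e-05) and miR-195-3p by 3.58 ± 0.56 (0.0836-fold, adjusted p = 0.00111), lower in 2 of 2 serum libraries than in each of the 4 others. Leaving out the LZ serum library gave -4.51 for miR-195-3p and leaving out that with OZ serum -3.08. miR-195-3p met the filter of a mean of 10 reads only through the libraries without rat serum, the group where it was high. Without ED-MDSC with no addition it fell under the filter and was not tested. For miR-497-5p, under the filter on reads, the ratio to the untreated library was 0.219 (0.0547 to 0.65) with LZ serum and 0.146 (0.0166 to 0.596) with OZ serum. The members of the other cluster gave log2 differences of 0.12 ± 0.19 for miR-16-5p, -0.40 ± 0.15 for miR-15b-5p, 0.08 ± 0.19 for miR-15b-3p and 0.47 ± 0.24 for miR-15a-5p (adjusted p of 0.615, 0.0545, 0.741 and 0.135). With library totals, which shifted all miRs by 0.47 towards serum, miR-16-5p was called higher (0.58, adjusted p = 0.0308), miR-15a-5p too (0.94, adjusted p = 0.013), and the sign of miR-15b-5p turned (0.07, adjusted p = 0.707). By library total the ratios of miR-16-5p to the untreated library were 1.35 (1.30 to 1.40) with LZ serum and 1.99 (1.92 to 2.06) with OZ serum. The red cell miR-451-5p moved with these, at 1111 and 3882 RPM against 115 to 636 without rat serum, and its part in the result was not tested. Without rat serum the 7 blood-cell miRs summed to 478 RPM with no addition, 1908 with albumin, 361 with cyclodextrin and 486 with cholesterol. In the same order miR-16-5p was at 1324, 1459, 1426 and 1690.

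Whether serum acted on ED-MDSC more than on ND-MDSC, ZF4-SC and ZL4-SC was tested as an interaction over 11 libraries, also chosen after the values were seen. Its p-values too are not independent evidence. The difference passed for 2 of 6 members, both lower, where 8.33% of 300 miRs passed. It was -3.48 ± 0.83 for miR-195-5p (adjusted p = 0.0371) and -3.91 ± 1.03 for miR-195-3p (adjusted p = 0.0459). Both were lost with library totals (-2.91 and -3.34, adjusted p = 0.108 for each), and leaving out single libraries gave adjusted p of 0.019 to 0.11 and 0.0429 to 0.169. The difference of miR-195-3p was -4.94 without ED-MDSC with LZ serum and -4.64 without ND-MDSC with no addition. The call of miR-195-5p remained only without ND-MDSC with no addition, ZF4-SC with OZ serum or ZL4-SC with OZ serum, and that of miR-195-3p only without either of the first 2 of these. Untreated ZF4-SC and ZL4-SC held only 13 and 21 reads of miR-195-5p and 2 and 4 of miR-195-3p. Their miR-195-5p levels (2.002 and 2.73) were already below those of ED-MDSC with rat serum (3.30 and 4.78). A fall as large as that in ED-MDSC could hardly be measured there, and only ND-MDSC also started high. In this fit miR-195-3p met the filter on reads only through ND-MDSC, where it was high (75 and 77 reads). Its call is therefore not independent support. The ED-MDSC belonged to the male table and the other cells to the serum table. The ED-MDSC also had serum of male rats where the female cells had serum of females, and ND-MDSC had no LZ serum library. The table, the serum and the kind of cell therefore cannot be told apart.

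To follow the stage of diabetes, the LD-MDSC library was compared with the 4 ED-MDSC libraries without rat serum. This comparison was also chosen after the values were seen, and the lone library is assumed to vary like the others. Stage of diabetes, age of the rats and line changed together here and cannot be told apart. The spread of LD-MDSC itself was not measured, so these p-values describe values already seen and are not independent evidence. Here too miR-195-3p met the filter on reads only through the ED-MDSC libraries without rat serum, where it was high. Of 6 members, 2 were lower and none higher, where 24.6% of 264 miRs passed. miR-195-5p was lower by -3.11 ± 0.41 (0.116-fold, adjusted p = 0.000752) and miR-195-3p by -3.31 ± 0.97 (0.101-fold, adjusted p = 0.04). Against ED-MDSC with no addition alone, the ratios were 0.0899 (0.0356 to 0.19) for miR-195-5p and 0.065 (0.0016 to 0.389) for miR-195-3p, and for miR-497-5p 0 reads stood against 21 (upper bound of the ratio 0.4). The call of miR-195-3p, which had 1 read in LD-MDSC, was lost on leaving out the albumin or the cholesterol library (adjusted p of 0.0618 and 0.0765) and in DESeq2 (0.127), while that of miR-195-5p remained under every alternative that tested it. Other members gave log2 differences of -0.47 ± 0.25 (miR-16-5p), 0.09 ± 0.19 (miR-15b-5p), -0.73 ± 0.29 (miR-15b-3p) and 0.26 ± 0.33 (miR-15a-5p), none passing. With library totals, which shifted all miRs by -0.45, miR-16-5p and miR-15b-3p were called lower (-0.92 and -1.18) and miR-15b-5p and miR-15a-5p turned to -0.36 and -0.19 without a call. The smooth muscle miRs miR-143-3p and miR-145-5p were higher in LD-MDSC (1.81 ± 0.21 and 1.27 ± 0.26, adjusted p = 0.000377 and 0.00824). They summed to 494400 RPM against 168100 to 217600 in the 4 ED-MDSC libraries, and their part in the result was not tested. The LD-MDSC and the serum-treated ED-MDSC are compared with the same 4 libraries. Set directly against the ED-MDSC libraries with LZ and OZ serum, LD-MDSC had miR-195-5p ratios of 1.15 (0.378 to 3.25) and 0.794 (0.265 to 2.19), so these 3 low values could not be told apart at this depth, while its miR-16-5p ratios were 0.437 (0.412 to 0.463) and 0.295 (0.279 to 0.313).

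**Figure D3:**
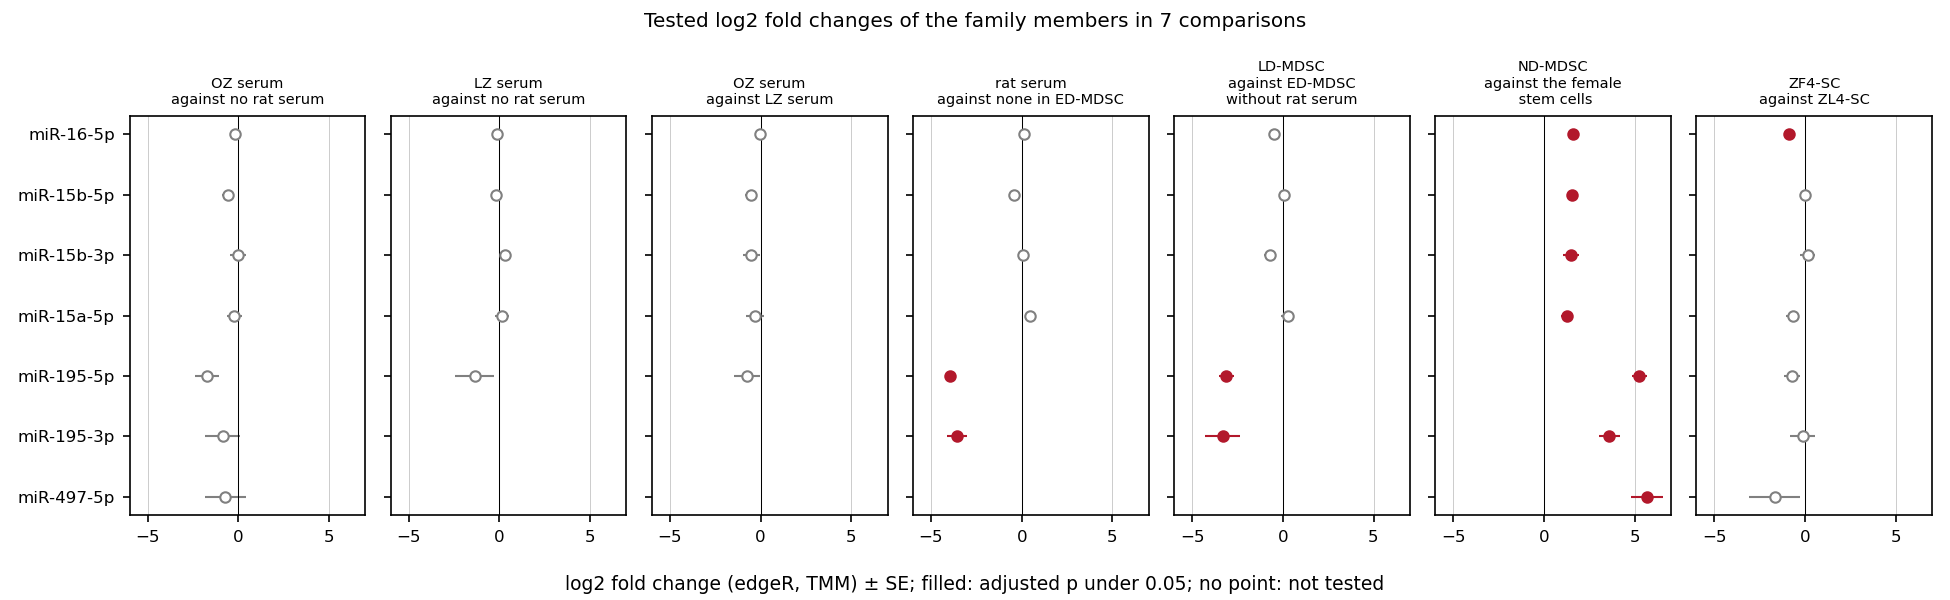
Log2 fold changes with standard errors (edgeR with TMM) of the 7 members tested, in 7 comparisons; filled points passed an adjusted p of 0.05 over all miRs of the comparison and a missing point was not tested. miR-195-5p is at -3.95 and -3.11 in the 2 ED-MDSC comparisons and at 5.26 in ND-MDSC against the female stem cells, and no member is filled in the 3 serum comparisons across stem cells.

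Carriers and lipids were the last question. In ED-MDSC, where each agent had 1 library and no test was made, the ratio of miR-195-5p to the library with no addition was 1.06 (0.812 to 1.39) with albumin, 0.989 (0.738 to 1.32) with cyclodextrin and 1.22 (0.944 to 1.56) with cholesterol. Cholesterol against its carrier cyclodextrin gave 1.23 (0.903 to 1.69) for miR-195-5p, 1.19 (1.13 to 1.25) for miR-16-5p and 1.08 (1.01 to 1.16) for miR-15b-5p. The labels give no dose for this library.

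In ZF4-SC, cholesterol (50 and 100 mg/dl taken as replicates) against cyclodextrin gave 0 of 4 members tested, where 0.913% of 219 miRs passed (9 at an unadjusted p under 0.05, 7 by DESeq2). miR-16-5p had 251 and 319 with cholesterol against 335 and 313 with cyclodextrin, and miR-15b-5p 289 and 341 against 93.3 and 239. The 2 cyclodextrin libraries differed from each other by a ratio of 2.56 (2.03 to 3.28) in miR-15b-5p and by 38 against 0 reads in miR-195-5p, and the log2 difference of miR-15b-5p was 0.87 ± 0.69. Palmitate against albumin also gave 0 of 4 members and 0% of 219 miRs (33 at an unadjusted p under 0.05, 16 by DESeq2). miR-15b-5p had 128 with 0.5 mM and 28.6 with 1 mM palmitate against 288 with albumin (log2 difference -2.16 ± 0.82, adjusted p = 0.235), and passed only with no filter on low counts (-2.24, adjusted p = 0.0181). miR-16-5p had 250 and 467 against 259. The 1 mM library held 49 reads of miR-16-5p and 3 of miR-15b-5p. Blood-cell miRs summed to 45720 RPM with 0.5 mM palmitate and 10190 with 1 mM against 368 with albumin, and their part was not tested.

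Ratios of members within a library do not depend on its size. Per 1000 reads of miR-16-5p there were 31.9 (27.1 to 37.3) of miR-195-5p in ED-MDSC with no addition, 30.8 with albumin, 29.2 with cyclodextrin and 30.4 with cholesterol, a narrow range. With LZ and OZ serum there were 1.85 (0.924 to 3.32) and 1.81 (0.937 to 3.17), and in LD-MDSC 4.88 (1.96 to 10.1). ND-MDSC had the highest values, 74.4 (68.0 to 81.3) and 67.1 (61.9 to 72.6), and the female cells of the serum table had 3.27 to 8.89. ZF4-SC of the lipid table ranged from 0 to 25.83. There, 25.83 (17.59 to 36.65) with albumin and 25.49 (17.96 to 35.15) in cyclodextrin library 2 had intervals overlapping those of ED-MDSC without rat serum. Per 1000 reads of miR-15b-5p, miR-195-5p was again highest in ND-MDSC (161 and 117), followed by ED-MDSC without rat serum (48.3 to 57.0). ED-MDSC had 3.83 (1.91 to 6.86) and 5.11 (2.64 to 8.95) with LZ and OZ serum, and LD-MDSC 5.69 (2.28 to 11.8). The female cells of the serum table had 7.24 to 18.1, here above LD-MDSC, with intervals that partly overlapped. ZF4-SC of the lipid table ranged from 0 to 33.4 on this measure. The miR-195/miR-497 cluster supplied 2.21% to 2.47% of the family's reads in ED-MDSC without rat serum, 0.196% and 0.219% with it, 0.328% in LD-MDSC, 4.72% and 5.63% in ND-MDSC and 0.435% to 0.817% in the female cells of the serum table. In the lipid table its share was 0% to 1.71%, apart from 5.455% (1.139 to 15.12) with 1 mM palmitate, from 3 reads.

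miR-16-5p and miR-15b-5p come from neighbouring hairpins, and their ratio was not fixed. It was 1.58 to 1.85 in ED-MDSC without rat serum, 2.07 (1.98 to 2.16) with LZ serum, 2.82 (2.69 to 2.96) with OZ serum and 1.17 (1.08 to 1.26) in LD-MDSC. Among the female cells of the serum table it was 1.06, 1.12 and 1.67 in ZF4-SC with none, LZ and OZ serum and 2.26, 1.99 and 2.83 in ZL4-SC, without overlap between the 2 lines. In the lipid table ZF4-SC without addition had 1.77 (1.64 to 1.90), so the 2 libraries of this condition differed beyond counting error. The ZF4-SC library with 1 mM palmitate gave 16.3, from 49 and 3 reads (5.27 to 81.9).

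**Figure D4:**
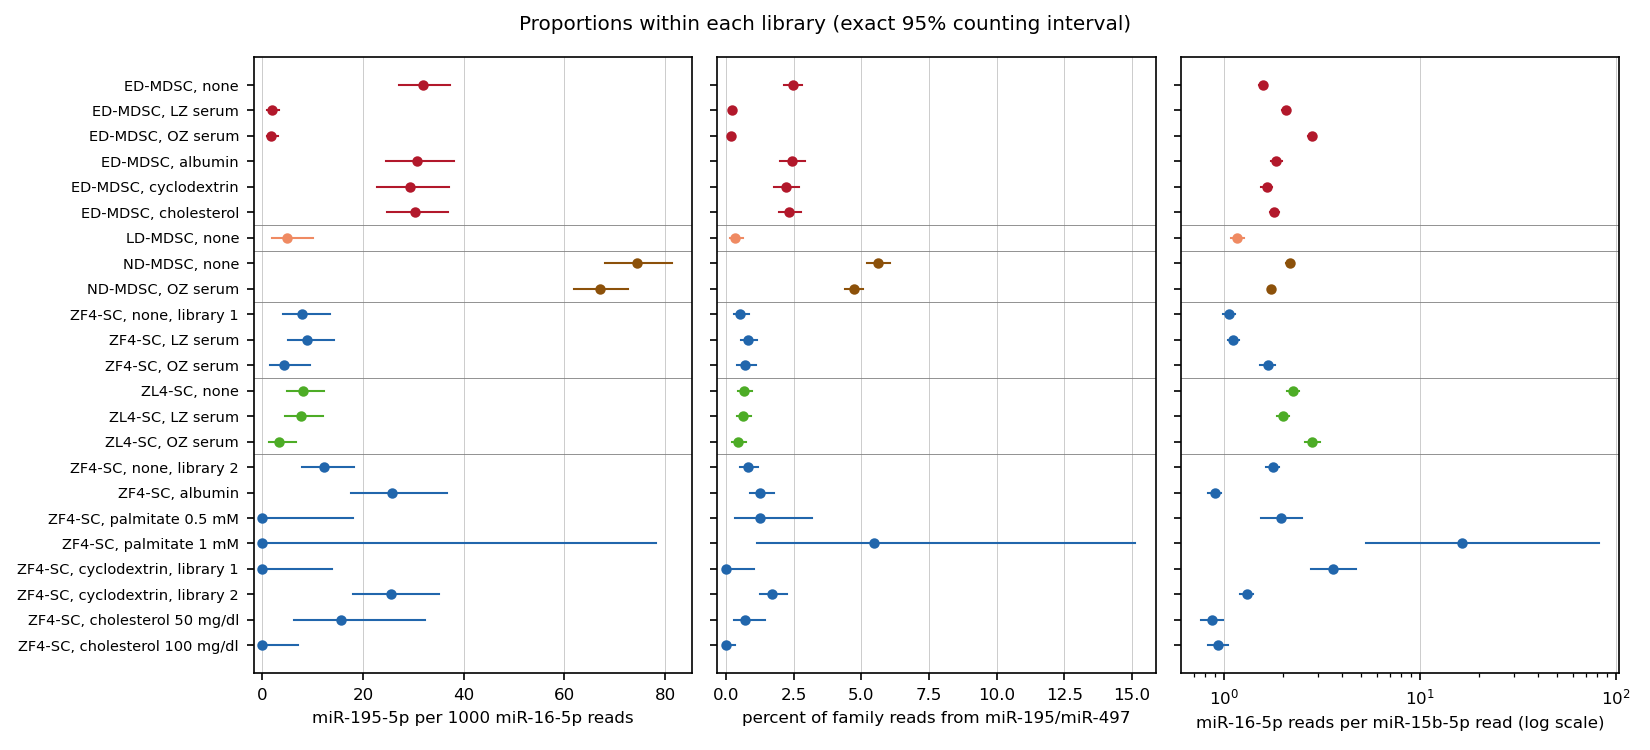
Proportions within each of the 23 libraries with exact 95% counting intervals, namely miR-195-5p per 1000 miR-16-5p reads, the percent of family reads from miR-195 and miR-497, and miR-16-5p reads per miR-15b-5p read (log scale). miR-195-5p per 1000 miR-16-5p reads is 29.2 to 31.9 in the 4 ED-MDSC libraries without rat serum, 1.81 and 1.85 with it and 67.1 and 74.4 in ND-MDSC.

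The arms of each hairpin were used unequally. The 3p arm held 12.5% of miR-195 reads over all libraries, 4.01% of miR-15b reads and 0.114% of miR-16 reads. For miR-195 it was 11.2% to 16.5% in ED-MDSC without rat serum and 12.4% and 10.4% in ND-MDSC. Its low counts in the other libraries give wide intervals, such as 26.7% (7.79 to 55.1) in ED-MDSC with LZ serum. It was 12.4% (10.9 to 13.9) over the 9 male libraries and 13.6% (9.31 to 19.0) over the 14 female ones, but the latter differed between tables, at 24.1% (16.4 to 33.2) in the serum table and 2.86% (0.593 to 8.12) in the lipid table. For miR-497 the 3p arm held 9.41% (4.15 to 17.7) of 85 reads in ND-MDSC and 8.16% (2.27 to 19.6) of 49 reads in ED-MDSC without rat serum, against 40% (12.2 to 73.8) of 10 reads with it. ZF4-SC had 93.3% (68.0 to 99.8) of 15 reads in the serum table and 81.2% (54.4 to 96.0) of 16 in the lipid table, and ZL4-SC 25.0% (0.631 to 80.6) of 4 reads.

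Other miRs with the same or a related seed were miR-322-5p and miR-503-5p, which share a cluster on chromosome X, and miR-103-3p and miR-107-3p. In the latter pair the shared bases start 1 base earlier. miR-424-5p was also sought, but no entry of that name was among the 792. In ND-MDSC against the female cells, 2 of 4 tested were higher (miR-322-5p 3.603 ± 0.71, adjusted p = 0.00886, and miR-103-3p 1.20 ± 0.34, adjusted p = 0.0332), with a median of 1.66. With rat serum in ED-MDSC, 2 of 4 were lower (miR-322-5p -1.18 ± 0.27 and miR-103-3p -0.61 ± 0.17, adjusted p = 0.00788 and 0.0161), with a median of -0.82, and in LD-MDSC 1 of 4 (miR-103-3p -0.71 ± 0.22, adjusted p = 0.049), with a median of -0.91. Over all miRs tested 38.1%, 51.1% and 24.6% passed in these comparisons, in either direction, so the shares of this list are near the background. No miR of it passed in the 7 other comparisons. The medians over all miRs tested in the same 3 comparisons were 0.04, -0.01 and -0.06.

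Of miRs tied to satellite cell quiescence, miR-489-3p is listed at 0 reads in every library, and miR-31a-5p and miR-708-5p were measured. miR-31a-5p, which in mouse holds back the myogenic factor Myf5, was higher in ND-MDSC than in the female cells (2.68 ± 0.20, adjusted p = 0.000738) and lower in ED-MDSC with rat serum (-1.88 ± 0.15, adjusted p = 3.5e-05) and in LD-MDSC (-0.71 ± 0.19, adjusted p = 0.0279). Its serum effect was also lower in ED-MDSC than in the other cells (-2.21 ± 0.47, adjusted p = 0.0241). miR-708-5p was higher in ED-MDSC with rat serum, at 75.3 and 97.1 RPM against 0 to 2.94. These calls too are to be read against the shares of all miRs above. Of 7 other miRs that restrain cyclins or E2F, 5 were tested. In ND-MDSC, let-7b-5p (0.83 ± 0.24), let-7c-5p (0.93 ± 0.26) and miR-29a-3p (0.90 ± 0.26, adjusted p = 0.0332 for each) were higher, with a list median of 0.83. In ED-MDSC with rat serum let-7b-5p and let-7c-5p were higher (0.58 ± 0.16 and 0.59 ± 0.15), and miR-34a-5p was lower in ZF4-SC than in ZL4-SC (-1.50 ± 0.29, adjusted p = 0.0385). In LD-MDSC let-7c-5p was higher (0.80 ± 0.18) and miR-29a-3p lower (-0.88 ± 0.19, adjusted p = 0.0157 and 0.0112). The list had no call in the 6 other comparisons.

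The miRs whose levels were most like those of the members were sought among 153 with a mean of at least 100 reads, by Pearson's r of log2(RPM + 1) over the 23 libraries, which share tables and depth. For miR-16-5p they were miR-26b-5p (0.957), miR-872-5p (0.939), miR-196a-5p (0.913), miR-374-5p (0.909) and miR-532-5p (0.893). For miR-15b-5p they were miR-532-5p (0.908), miR-421-3p (0.899), the predicted p-rno-miR-22 (0.897), miR-148b-3p (0.863) and miR-322-5p (0.857). The 2 members themselves correlated at 0.761, which ranked miR-15b-5p 21st for miR-16-5p. For miR-195-5p, added after its values were seen because its mean was under 100 reads, they were miR-100-5p (0.879), miR-3559-5p (0.853), miR-452-5p (0.836), miR-152-3p (0.82) and miR-322-5p (0.817), and it correlated with miR-15b-5p at 0.714 and with miR-16-5p at 0.649.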

How the data were processed

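Per the labels, RNA was extracted and libraries were made with Norgen kits, while the study's methods name mirVana for the extraction. The data were read as the authors deposited them, as whole-number counts per miR (792 entries of miRBase release 18) in 3 tables. Whether the tables were separate sequencing runs is not stated. The counts were not normalised, and the aligner and the handling of reads that match several entries are not given in the sources used here. Columns were matched to samples by title, and 0 columns were left unused. Levels are reads per 1000000 miR reads of a library (RPM), with exact 95% intervals (scipy 1.17.1, Python 3.11.15). Differences were tested with edgeR 4.0.16 (R 4.3.3; quasi-likelihood test, TMM factors) over all miRs that averaged 10 reads or more in the libraries fitted, with Benjamini-Hochberg adjustment over all of them and a threshold of 0.05. Serum comparisons were blocked by stem cell, and comparisons of stem cells were adjusted for the agent. The standard error was taken as the size of the log2 fold change divided by the square root of F. Alternatives were library totals, DESeq2 1.42.0, no filter, a mean of at least 100 reads, no block, the other untreated ZF4-SC library and each library or stem cell left out. The fits were tested on simulated data. The members and lists were chosen with earlier results of these data known. Every entry that met the naming rule was taken, listed miRs were named where called, and the 5 most alike miRs were named by correlation for members averaging 100 reads or more. The tests within ED-MDSC, LD-MDSC and of the interaction were added after the data were seen. Each library of LD-MDSC (1) and of albumin in ZF4-SC (1) entered a test alone, with its spread taken from the other libraries, and pairs of single libraries were compared by ratio without a test. Sequences came from RefSeq (GRCr8); miR-15a was not matched.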

Additional observations from a re-analysis of the deposited data

Results flagged for a closer look

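The effect of rat serum in ED-MDSC differed from its effect in ND-MDSC, ZF4-SC and ZL4-SC by a test of the difference itself for both arms of the miR-195 hairpin. The difference of the log2 effects was -3.48 for miR-195-5p (adjusted p = 0.0371 in edgeR's quasi-likelihood test) and -3.91 for miR-195-3p (adjusted p = 0.0459), lower in ED-MDSC. The miR-195-5p ratios behind it were 0.0782 and 0.113 in ED-MDSC with LZ and OZ serum and 0.346 to 1.30 in the 5 other pairs of a serum-treated and an untreated library. Untreated ZF4-SC and ZL4-SC had only 13 and 21 reads of miR-195-5p and 2 and 4 of miR-195-3p. A fall as large as that in ED-MDSC could hardly be measured in them. The comparison was chosen after the values were seen, and ED-MDSC were in another table than the other cells. The ED-MDSC also had serum of male rats where the female cells had serum of females. Both calls were lost with library totals (adjusted p = 0.108), and with single libraries left out the adjusted p reached 0.11 and 0.169. miR-195-3p met the filter on reads only through ND-MDSC, where it was high, so its call is not independent support.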

How the results depend on the processing

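Of 544 log2 changes of members recomputed under an alternative, 455 kept their direction and side of the threshold, 42 lost a call, 6 gained one and 41 changed sign, none of the last having been called. Depth limits miR-195-3p and miR-497-5p, which had 0 to 7 reads in each female library and in LD-MDSC, and no value below the level of 3 reads can be told from 0. A mean of at least 100 reads removes most members from the tests by construction, and the cause of the other changes was not tested.

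Counts of miRs called changed most. With DESeq2 they were 4 for OZ serum against none, 0 for OZ against LZ serum, 1 for LZ serum against none, 50 for ZF4-SC against ZL4-SC, 7 for cholesterol, 16 for palmitate and 45 for the interaction. With no filter they were 5, 2, 1, 55, 6, 20 and 42 in the same order. Library totals gave 0 for OZ against LZ serum, 16 for ZF4-SC against ZL4-SC and 7 for the interaction. A mean of at least 100 reads gave 0 for OZ against LZ serum, 10 for ZF4-SC against ZL4-SC, 61 for ND-MDSC against the female cells and 77 for serum in ED-MDSC, and no stem cell block gave 0 for OZ against LZ serum.

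Members called numbered 0 for ZF4-SC against ZL4-SC, 4 for serum in ED-MDSC, 4 for LD-MDSC and 0 for the interaction with library totals. With a mean of at least 100 reads they numbered 0, 0, 0 and 1 in the same order and 4 for ND-MDSC. DESeq2 gave 1 for LD-MDSC, and no filter gave 1 for palmitate. These counts are to be read against those of all miRs. Over all alternatives, 77 to 164 miRs were called for serum in ED-MDSC and 44 to 97 for LD-MDSC. In the main fits 51.1% and 24.6% of 264 miRs passed. Library totals shifted all miRs by 0.47 and -0.45 in the same order.

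Leaving out single libraries or stem cells gave 0 to 0 miRs for OZ serum against none, 1 to 9 for OZ against LZ serum, 0 to 3 for LZ serum against none, 0 to 71 for ZF4-SC against ZL4-SC, 69 to 127 for ND-MDSC, 0 to 7 for cholesterol, 0 to 0 for palmitate, 104 to 124 for serum in ED-MDSC, 47 to 89 for LD-MDSC and 6 to 35 for the interaction. Members called ranged from 0 to 1 for ZF4-SC against ZL4-SC, 4 to 6 for ND-MDSC, 2 to 2 for serum in ED-MDSC, 1 to 2 for LD-MDSC and 0 to 2 for the interaction. The main fits tested 7, 7, 6, 6 and 6 members in the same order. There 8.93%, 38.1%, 51.1%, 24.6% and 8.33% of all miRs passed. The number tested fell where a member went under the filter on reads, as miR-497-5p did without either ND-MDSC library.

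Sign changes were as follows. For OZ serum against none, miR-15b-3p was 0.10 with library totals, 0.040 with DESeq2, 0.086 with no filter, 0.042 with the 100-read mean, 0.19 with no block and 0.083 with the other untreated ZF4-SC library. For OZ against LZ serum, miR-16-5p was 0.014 with DESeq2, 0.11 with no filter and 0.12 with no block. For LZ serum against none, library totals gave 0.10 for miR-15b-5p and 0.20 for miR-16-5p. For ZF4-SC against ZL4-SC, miR-195-3p was 0.25 with library totals, miR-15b-5p -0.048 with DESeq2, -0.19 with no filter and -0.042 with the 100-read mean, and miR-15b-3p -0.048 with no filter. For palmitate, miR-16-5p was 0.44 with library totals and 0.14 with the 100-read mean. With library totals, miR-15b-5p was 0.069 for serum in ED-MDSC, -0.36 for LD-MDSC and 0.32 for the interaction, and miR-15a-5p -0.19 for LD-MDSC. The interaction of miR-15b-3p was -0.0058 with the 100-read mean.

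Leaving out single libraries gave ranges across 0 of -0.14 to 0.32 (miR-15b-3p), -1.60 to 0.28 (miR-195-3p), -1.31 to 0.71 (miR-497-5p) and -0.17 to 0.0065 (miR-16-5p) for OZ serum against none, and of -0.15 to 0.14 (miR-16-5p) for OZ against LZ serum. They were -0.20 to 0.29 (miR-15a-5p) for LZ serum against none, and -0.20 to 0.53 (miR-15b-3p), -0.28 to 0.17 (miR-15b-5p) and -0.81 to 0.23 (miR-195-3p) for ZF4-SC against ZL4-SC. They were -0.35 to 0.18 (miR-16-5p) for palmitate, -0.012 to 0.14 (miR-15b-3p) and -0.17 to 0.40 (miR-16-5p) for serum in ED-MDSC and -0.24 to 0.23 (miR-15b-3p) for the interaction.

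With TMM sizes in place of library totals, ratios to ED-MDSC with no addition passed 1 for miR-15b-5p in LD-MDSC (1.04, and 1.21 without the 3 most abundant miRs), miR-16-5p with LZ serum (0.981), miR-15b-5p with OZ serum (0.77) and cholesterol (0.957), and miR-16-5p with albumin (0.988) and cyclodextrin (0.935).

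The labels give the groups no shared replicate numbers, and serum comparisons were paired by stem cell only. The interaction without the untreated ED-MDSC library could not be fitted.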
